A study of Mus musculus with 15 samples.

Results

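The 43 collagen chains described here are the entries of 2 deposited count tables, 1 for males and 1 for females, whose symbol is Col, a number, a and a number, with Col13a1 left aside. They are 43 of 42396 entries in each table: 11 fibrillar chains, 6 chains of type IV, the basement membrane collagen, and 26 others. The RNA came from the tibialis anterior, a muscle of the lower leg, of adult C57BL/6 mice injected in the hindlimb with AAV6, an adeno-associated virus that infects muscle fibres. It carried either LSMEM2 C-del, a form of a leucine-rich single-pass membrane protein whose change the labels do not spell out, or EGFP, the green fluorescent protein, as the mock control. Muscle was taken 2 months after injection. Males gave 4 mock and 4 C-del libraries, females 3 mock and 4 C-del libraries. No genotype beyond the strain is stated; neither the viral promoter nor the age in weeks is given in the sources used here. Whether each library is its own mouse is not stated, so p-values measure the spread between libraries, which may be technical.

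Collagens are secreted proteins built from triple helices of 3 chains, and the chain genes are named for the collagen type and the chain. In muscle, fibroblasts lay down fibrils of types I, III and V around fibres and fascicles, while each fibre and capillary is wrapped in a basement membrane with a network of type IV, linked to the interstitium by type VI microfibrils. Fibril-associated collagens such as types XII and XIV sit on the fibril surface, and type XXII marks the junction of muscle and tendon.

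The male libraries held 14297600 to 17744000 counts each and the female libraries 9285150 to 12054900. Levels are given as CPM, the usual share of a gene in all counts of its library after scaling with TMM factors, and levels of different genes are compared only after division by the length of their exons in kb. Lsmem2 had 28.5 to 32.8 CPM in the mock libraries and 481 to 2705 CPM in the C-del libraries. An extraction note speaks of hearts. Of 5 listed heart genes, Nppa and Myl7 had at most 0.136 CPM and the counts of Nppb rounded to 0 in every library. The heart genes Myh6 and Tnnt2 had 2.89 to 7.69 and 0.938 to 5.28 CPM. Skeletal actin, Acta1, was at 21894 CPM or above. Sex and table cannot be told apart, since each sex has its own table. In whole muscle, fewer cells of a type and less RNA per cell cannot be told apart either.

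By mean level in mock muscle, type I and III chains led the family. In mock muscle Col1a1, the alpha 1 chain of type I, had a mean of 63.3 CPM per kb in males and 18 in females. Col3a1, the chain of type III, had 39.5 and 22.1 CPM per kb, and Col1a2, the partner of Col1a1, had 37.5 and 14.4. Next came the paired basement membrane chains Col4a1, at 22.0 CPM per kb in males and 14 in females, and Col4a2, at 20.5 and 12. Col6a1 of the beaded microfibrils had 15.5 and 12.7 CPM per kb, below Col4a2 in males and above it in females. The order of type I and type III was not firm: the Col1a1 counts of male mock libraries differed by several fold, from 179 to 819 CPM, and in female mock the mean of Col3a1 was the higher one. Nor was their lead over type IV firm in single libraries. Per kb, Col4a1 lay above Col3a1 and Col1a2 in male mock libraries 1 and 2. In female mock library 1 it lay above Col1a1 as well as these chains. Of the remaining type IV chains, Col4a3, Col4a4 and Col4a5 had 0.177 to 0.318 CPM per kb in male mock, and Col4a6 had 0.00849. The cartilage chains Col2a1 and Col9a3 were near the floor in male mock, at 0.0505 and 0.0307 CPM per kb, and Col10a1 had 0 in all mock libraries. Other chains of types that also occur in cartilage were higher in male mock. Col11a1 had 1.16, Col9a1 0.540, Col11a2 0.191 and Col9a2 0.170 CPM per kb. The male mean of Col11a1 rested on mock libraries 3 and 4, with 3.36, 3.22, 32.3 and 20.1 CPM in mock libraries 1 to 4. In female mock it had 0.326 CPM per kb.

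**Figure D1:**
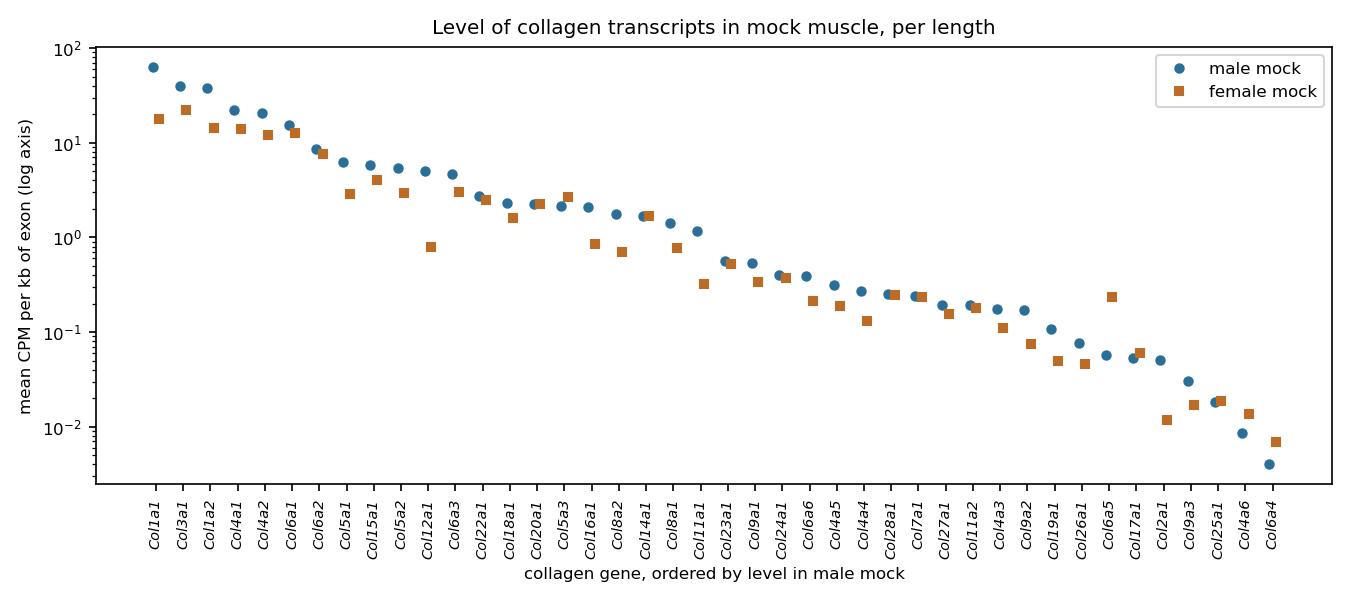
Mean level of each collagen chain with counts in mock muscle of both sexes, in CPM per kb of exon on a log axis, ordered by the level in male mock (circles: male mock, 4 libraries; squares: female mock, 3 libraries). By these means Col1a1, Col3a1 and Col1a2 lead, followed by Col4a1 and Col4a2, and the range down to Col6a4 covers 4 powers of 10.

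A filter on low counts (a count of about 10 in enough libraries) left 34 chains to be tested in males, 32 in females and 36 in the joint fit of all libraries. In each fit 10 of the 11 fibrillar and 5 of the 6 type IV chains were tested, with Col2a1 and Col4a6 falling below the filter. Among the other collagens 19 were tested in males, 17 in females and 21 jointly. Col6a4, Col9a3, Col10a1, Col17a1 and Col25a1 were tested nowhere, Col6a5 and Col9a2 only jointly, and Col19a1 and Col26a1 not in females alone. A chain passed at an adjusted p under 0.05 in edgeR's quasi-likelihood test, with Benjamini-Hochberg adjustment over all genes tested.

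In males, 2 of 34 chains were higher with C-del and 0 were lower: Col4a1 of the basement membrane and Col5a3, a minor chain of the fibrillar type V. Over all genes tested, 5.8% were higher and 5.37% lower, so the share of collagens called was not above the background. Before adjustment, 2 chains were higher and 4 lower at p under 0.05. Over all genes these shares were 13.1% and 12.9%. In females 0 of 32 passed in edgeR, against 0.0141% of all genes. With no adjustment, at p under 0.05, 5 chains were higher (4.81% of all genes) and 2 were lower (7.09%). DESeq2 called 2 chains in females, both higher, beside 0.83% of all genes higher and 1.81% lower. In the average of both sexes Col4a1 and Col4a2 were higher and Col6a6 lower, 3 of 36 chains, beside 2.42% of all genes higher and 1.99% lower. With no adjustment 5 chains were higher on average (8.89% of all genes) and 4 lower (10.8%), and DESeq2 called 2 higher and 2 lower, beside 3.87% and 3.31% of all genes. For the difference between the sexes (female minus male effect) 0 of 36 passed in edgeR and 0 in DESeq2. Of all genes, 0.17% had a higher and 0.183% a lower value in edgeR. In DESeq2, 199 of 15272 genes had a higher and 457 a lower value. With no adjustment, 5 chains had a higher value (7.09% of all genes) and 1 a lower one (9.76%). By sign alone, 12 of 34 chains lay above 0 in males (49% of all genes), 22 of 32 in females (47.6%), 17 of 36 on average (45.7%) and 26 of 36 in the difference (48.3%).

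**Figure D2:**
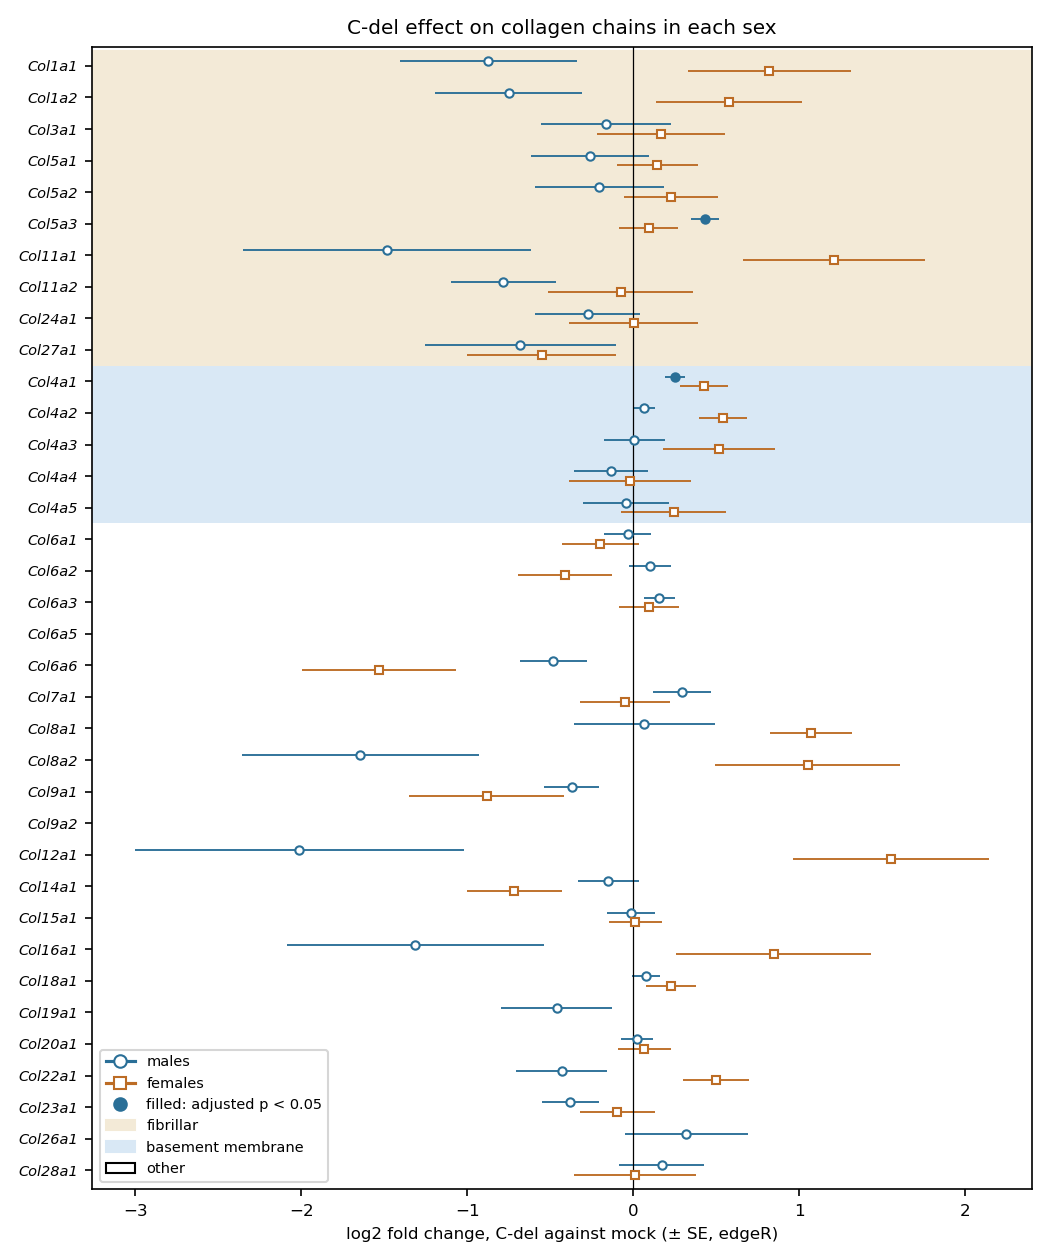
Log2 fold change of C-del against mock for the tested chains, with bars of 1 SE from edgeR, in males (circles) and females (squares), grouped as fibrillar, basement membrane and other collagens; filled symbols passed. Only Col4a1 and Col5a3 in males are filled, at 0.25 and 0.43, and the widest bars belong to chains such as Col12a1, Col11a1 and Col8a2, whose point lies below 0 in males and above 0 in females.

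Type IV collagen is woven from protomers that hold alpha 1 and alpha 2 chains in most tissues, and the genes for these chains lie head to head on chromosome 8, Col4a1 from 11198423 to 11312826 on the minus strand and Col4a2 from 11312805 to 11449287 on the plus strand (GRCm38). The annotated starts were 21 bases apart, and the first exons overlap, so reads there can be split between the genes with certainty only if the counting used strand. Col4a1 was at 168, 179, 156 and 155 CPM in male mock libraries 1 to 4 and at 211, 205, 181 and 186 CPM in male C-del libraries 1 to 4. The C-del values all exceeded the mock values, as was the case for 9.05% of all genes tested in males. Its rise was 1.19-fold, a log2 fold change of 0.25 ± 0.06 (SE; edgeR, adjusted p = 0.0157). The call was lost without male mock library 3 (adjusted p = 0.0538), mock library 4 (0.0594) or C-del library 1 (0.0548), and in the joint fit of all 15 libraries (0.23, with 1.4% of all genes higher and 1.09% lower). It was also lost without mock libraries 3 and 4 together (log2 fold change 0.17, adjusted p = 0.214), without C-del libraries 1 and 2 together (0.16, adjusted p = 0.127), and with neighbouring columns summed (adjusted p = 0.209).

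In females Col4a1 was at 96.8, 128 and 87.4 CPM in mock libraries 1 to 3 and at 140.5, 149.7, 124 and 148 CPM in C-del libraries 1 to 4. Mock library 2 reached above C-del library 3, so the groups overlapped. The log2 fold change was 0.43 ± 0.14 (SE; edgeR, adjusted p = 0.274). Col4a2 was at 80.5, 95.9 and 61.7 CPM in female mock and at 116, 123, 107 and 115 CPM in female C-del libraries. Here no libraries of the groups overlapped, as for 5.71% of all genes, but the log2 fold change of 0.54 ± 0.15 did not pass (edgeR, adjusted p = 0.194). DESeq2 called Col4a2 in females (0.54, adjusted p = 0.0255), and the joint fit of all libraries called both Col4a1 (0.43, adjusted p = 0.0347) and Col4a2 (0.54, adjusted p = 0.015), beside 1.72% of all genes higher and 3.37% lower.

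In males Col4a2 read 129, 157, 129 and 129 CPM in mock and 147, 149, 136 and 138 CPM in C-del libraries. Mock library 2 stood above all other male libraries, and the log2 fold change of 0.07 ± 0.06 did not pass (edgeR, adjusted p = 0.552). Averaged over the sexes, Col4a1 rose by 0.34 ± 0.08 and Col4a2 by 0.31 ± 0.08 on the log2 scale (edgeR, adjusted p = 0.0167 and 0.0321). The average call of Col4a1 was kept in all 15 runs that left out 1 library, and was lost without male mock libraries 3 and 4 together (0.31, adjusted p = 0.11) and without male C-del libraries 1 and 2 together (0.30, adjusted p = 0.105). That of Col4a2 was lost in 8 of the 15 such runs, which left out male mock library 1, 3 or 4, male C-del library 1, 2 or 4, or female C-del library 2 or 4, with adjusted p from 0.0508 to 0.0828.

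The balance of the pair was compared as the ratio of Col4a1 to Col4a2 in CPM per kb, which used no scaling between libraries. It was 1.15, 1.01, 1.07 and 1.07 in male mock libraries and 1.27, 1.23, 1.18 and 1.19 in male C-del libraries. All C-del ratios lay above all mock ratios, with a log2 difference of means of 0.18. An exact two-sided permutation test gave p = 0.0286, the smallest value that 4 against 4 allows, or 0.172 after adjustment over the 6 ratio tests made. In females the ratio was 1.07, 1.19 and 1.26 in mock and 1.07, 1.08, 1.02 and 1.13 in C-del libraries, which overlapped (exact two-sided permutation test, p = 0.229). The female minus male effect was 0.18 for Col4a1 and 0.47 for Col4a2 on the log2 scale, and did not pass for either (edgeR, adjusted p = 0.562 and 0.125). Without female mock library 2 the difference for Col4a2 was 0.63 and passed (adjusted p = 0.0442).

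The other type IV chains, which build specialised basement membranes such as that of the kidney glomerulus, were low. Col4a4 had 3.10, 3.35, 1.57 and 3.40 CPM in male mock and 3.35, 2.61, 2.14 and 2.33 CPM in male C-del libraries. Female libraries held 1.21, 1.84 and 1.10 CPM in mock and 1.97, 1.29, 1.52 and 0.705 CPM in C-del libraries. Groups of both sexes overlapped. Col4a5, on chromosome X, had 2.72, 1.27, 1.98 and 2.57 CPM in male mock and 1.42, 2.27, 2.88 and 1.74 CPM in male C-del libraries, and 1.76, 0.79 and 1.21 CPM in female mock against 1.61, 1.38, 1.27 and 1.61 CPM in female C-del libraries. Neither passed in either sex. The median log2 fold change of the 5 type IV chains tested was 0.01 in males, 0.43 in females and 0.27 on average, where the median of all genes was 0.00, -0.01 and -0.02.

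Endothelial cells are another source of type IV collagen. The 8 endothelial markers, all tested, summed to 501 to 534 CPM in male mock and 521 to 555 CPM in male C-del libraries. In females they summed to 374 to 409 CPM in mock and 470 to 504 CPM in C-del libraries, without overlap, and no marker was at 0 in any library. Cldn5 was lower in males (log2 fold change -0.83; edgeR, adjusted p = 0.00403; lost in 3 of 18 alternatives, up to 0.147) and Flt1, a VEGF receptor, was higher on average (0.30, adjusted p = 0.00624). Each was 1 of 8, beside 5.37% of all genes lower in males and 2.42% higher on average. At an unadjusted p under 0.05, 3 of 8 were higher and 1 lower in males (13.1% and 12.9% of all genes). In females 5 were higher and 0 lower (4.81% and 7.09%), as on average (8.89% and 10.8%). The 8 markers of pericytes and smooth muscle cells, which wrap vessels, summed to 1275 to 1335 CPM in male mock and 1116 to 1143 CPM in male C-del libraries, and 6 of 8 passed as lower in males, beside 5.37% of all genes. Of these, Tagln lost the call in 9 of 18 alternatives, Myh11 in 7, Acta2 in 4, Abcc9 and Pdgfrb in 3 each and Kcnj8 in 1. Tagln lost it without male mock library 2, 3 or 4 or C-del library 1 or 2 (adjusted p from 0.054 to 0.0744), and Myh11 without male mock library 2 or 4 or C-del library 1 or 4 (0.052 to 0.0674). With neighbouring columns summed 0 of the 6 kept it (0.0512 to 0.21). In females they summed to 868 to 999 CPM with mock and 1029 to 1135 CPM with C-del. There 0 of 8 passed in edgeR, with 2 higher before adjustment (4.81% of all genes). The part of either list in the type IV result was not tested.

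**Figure D3:**
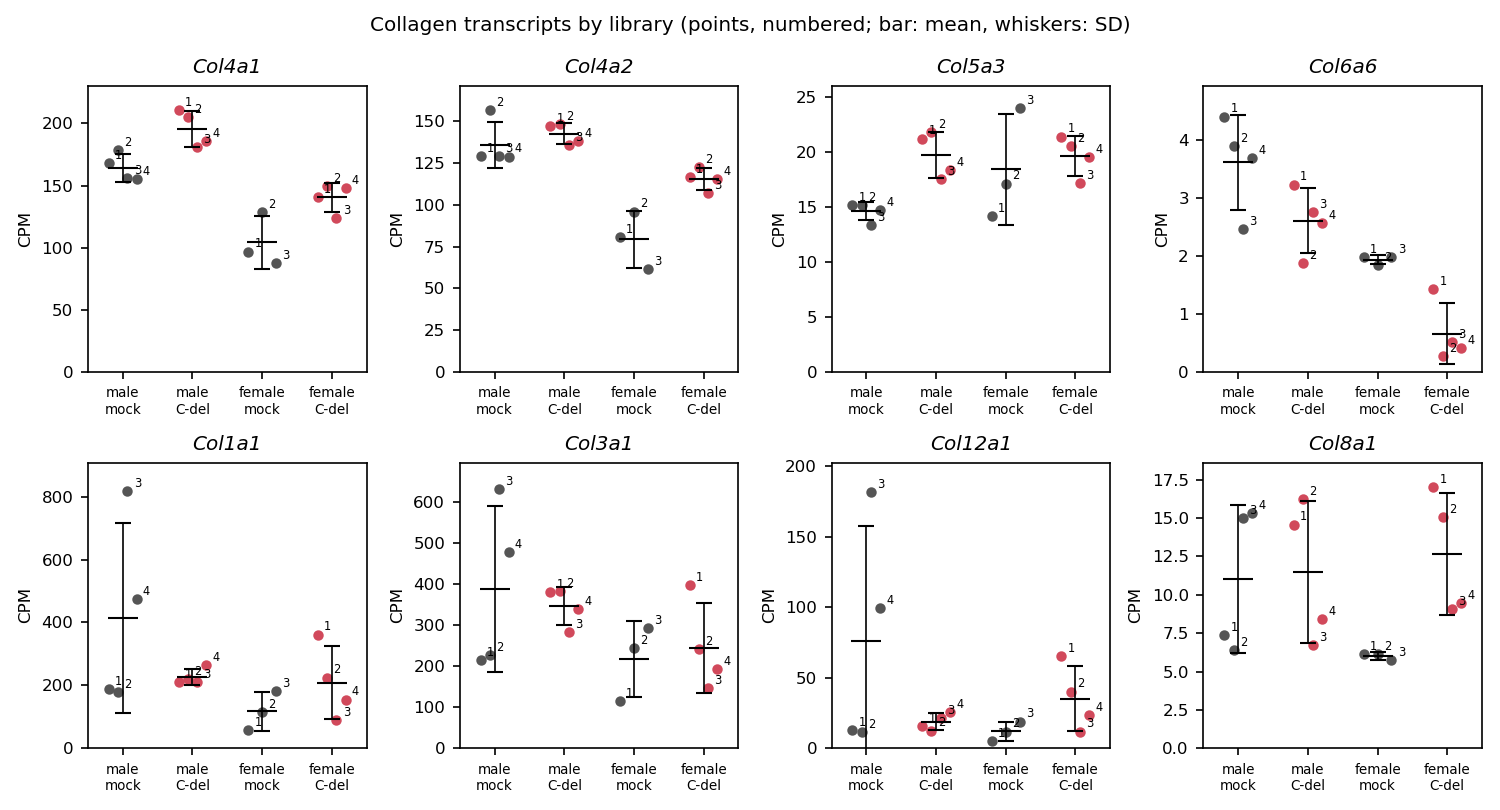
CPM of 8 collagen chains in every library (points, numbered by library; grey: mock, red: C-del), with the group mean as a bar and SD as whiskers. Col4a1 in males and Col4a2 in females separate C-del from mock without overlap, whereas in Col1a1 and Col12a1 male mock libraries 3 and 4 stand above the other 6 male libraries.

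Among fibrillar collagens, Col5a3 (chromosome 9, 20770050 to 20815067, minus strand) was the chain that passed. It had 15.2, 15.2, 13.4 and 14.7 CPM in male mock libraries and 21.2, 21.8, 17.6 and 18.3 CPM in male C-del libraries. All 4 C-del libraries lay above all mock libraries, as for 9.05% of all genes tested in males. The rise was 1.35-fold, with a log2 fold change of 0.43 ± 0.08 (SE; edgeR, adjusted p = 0.00425), and the call was kept whichever male library was left out. It was lost without male mock libraries 3 and 4 together (0.38, adjusted p = 0.0586), without male C-del libraries 1 and 2 together (0.30, adjusted p = 0.0591), in the joint fit (adjusted p = 0.0987) and with neighbouring columns summed (adjusted p = 0.113). In females Col5a3 had 14.2, 17.1 and 24.0 CPM in mock and 21.4, 20.5, 17.2 and 19.5 CPM in C-del libraries, so the groups overlapped (log2 fold change 0.09; edgeR, adjusted p = 0.855). The difference of its effect between the sexes was -0.34 and did not pass (edgeR, adjusted p = 0.381).

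The major fibrillar chains were dominated by single libraries. Col1a1 had 189, 179, 819 and 476 CPM in male mock and 211, 221, 212 and 265 CPM in male C-del libraries. Mock libraries 3 and 4 were above all other males, and mock libraries 1 and 2 below all C-del libraries. Its partner Col1a2 had 249.6, 247, 845 and 522 CPM in male mock and 276, 270.4, 238 and 324 CPM in male C-del libraries. Col3a1 had 215, 227, 629.8 and 478 CPM in male mock and 380.0, 382, 282 and 338 CPM in male C-del libraries. The same pair of mock libraries was highest for both, and mock libraries 1 and 2 were lowest for Col3a1. None of these passed in males: the log2 fold change was -0.87 ± 0.54 for Col1a1, -0.75 ± 0.44 for Col1a2 and -0.16 ± 0.39 for Col3a1 (edgeR, adjusted p = 0.374, 0.354 and 0.838).

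In females Col1a1 had 57.8, 115 and 181 CPM in mock and 362, 225, 90.7 and 155 CPM in C-del libraries. Col1a2 had 92.0, 189 and 254 CPM in mock and 447, 284, 133 and 201 CPM in C-del libraries. Col3a1 had 115, 244 and 292 CPM in mock and 397, 241, 146 and 193 CPM in C-del libraries. For these chains female mock library 1 was lowest and C-del library 1 highest of the 7, and the groups overlapped. The log2 fold changes were 0.82 ± 0.49, 0.58 ± 0.44 and 0.17 ± 0.38, and none passed (edgeR, adjusted p = 0.553, 0.629 and 0.883).

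Type V, which joins type I in mixed fibrils and limits their width, is usually built from Col5a1 and Col5a2. Col5a1 had 30.7, 33.8, 85.6 and 60.1 CPM in male mock and 50.3, 43.1, 37.5 and 44.0 CPM in male C-del libraries. The female levels were 17.6, 29.1 and 27.3 CPM in mock and 38.7, 27.0, 20.1 and 23.6 CPM in C-del libraries. The profile over male libraries followed that of Col3a1 rather than that of Col5a3, which was lowest in mock library 3. Per kb of exon, Col5a3 stood at 0.195 to 0.617 of Col5a1 in male mock and at 0.519 to 0.63 in male C-del libraries, and at 0.69 to 1.1 in female libraries. The difference in males did not hold up against the spread (exact two-sided permutation test, p = 0.314).

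In males 9 of the 10 fibrillar chains tested had a fold change below 0 on the log2 scale, with a median of -0.48, and in females 8 of 10 had one above 0, with a median of 0.16. Without male mock libraries 3 and 4 the male median was 0.41, and 9 of 10 were above 0. In that run Col3a1 (0.64, adjusted p = 0.0143), Col5a2 (0.61, adjusted p = 0.00987) and Col5a1 (0.44, adjusted p = 0.0302) passed as higher and Col11a2 (-1.20, adjusted p = 0.0356) as lower in edgeR, beside 2.62% of all genes higher and 2.5% lower. Mock libraries 3 and 4 were the 2 highest of the 8 male libraries for Col3a1, Col5a1 and Col5a2. Leaving them out had to raise these fold changes, so the 3 higher calls are no evidence of a rise. For Col11a2 they were the 2 lowest mock libraries, at 0.955 and 0.764 CPM beside 2.07 and 1.48 CPM in mock libraries 1 and 2. Leaving them out had to lower its fold change, so its call is no evidence of a fall. The direction of the fibrillar group in males rested on male mock libraries 3 and 4.

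The bases before the start sites of 4 chains with unlike profiles are shown: Col3a1 and Col5a1, which were highest in male mock libraries 3 and 4, Col5a3, which was not, and Col8a1 of the network group. Each is the 250 bases upstream of the RefSeq start in GRCm38.p6, 5′ to 3′ on the strand of the gene. Capitals mark the CCAAT box (on the other strand it reads ATTGG), the GC box core GGGCGG (on the other strand it reads CCGCCC) and the TATA box letters TATAAA (on the other strand they read TTTATA), all searched on both strands. The windows are chr1:45311288-45311537 (plus strand), chr2:27886175-27886424 (plus), chr9:20815068-20815317 (minus) and chr16:57754738-57754987 (minus), and none overlaps an annotated exon.
Col3a1: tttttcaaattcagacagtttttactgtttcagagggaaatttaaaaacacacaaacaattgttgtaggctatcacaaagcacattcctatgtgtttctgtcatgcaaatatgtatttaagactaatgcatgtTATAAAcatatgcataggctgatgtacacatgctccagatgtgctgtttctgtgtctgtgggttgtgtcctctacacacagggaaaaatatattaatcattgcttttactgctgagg
Col5a1: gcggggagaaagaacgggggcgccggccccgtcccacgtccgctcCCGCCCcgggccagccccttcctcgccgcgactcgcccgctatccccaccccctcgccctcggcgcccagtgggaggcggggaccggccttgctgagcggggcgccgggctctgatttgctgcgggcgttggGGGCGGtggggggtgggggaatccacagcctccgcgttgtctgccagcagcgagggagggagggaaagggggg
Col5a3: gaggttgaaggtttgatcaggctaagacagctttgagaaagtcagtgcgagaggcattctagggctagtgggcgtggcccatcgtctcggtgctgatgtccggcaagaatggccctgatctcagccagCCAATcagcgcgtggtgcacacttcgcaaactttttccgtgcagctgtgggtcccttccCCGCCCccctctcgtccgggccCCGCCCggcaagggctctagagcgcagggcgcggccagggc
Col8a1: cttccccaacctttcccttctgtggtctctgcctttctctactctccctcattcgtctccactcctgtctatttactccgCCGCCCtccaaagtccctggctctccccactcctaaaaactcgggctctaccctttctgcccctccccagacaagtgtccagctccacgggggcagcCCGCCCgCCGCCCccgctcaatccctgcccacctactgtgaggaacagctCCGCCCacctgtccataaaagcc
The window of Col3a1 held 1 TATA box and no match to the other motifs, that of Col5a1 held 2 GC boxes, that of Col5a3 held 1 CCAAT box and 2 GC boxes, and that of Col8a1 held 4 GC boxes. RefSeq windows were found for 34 of the 43 chains, 37 windows in all. The GC box core, which SP1 binds, was in 22 of these 37 (59.5%) and in 32.7% of all 32851 windows. The CCAAT box was in 35.1% against 33.8%, and the TATA box in 10.8% against 12.4%. A match describes the letters only, and the motifs searched do not overlap one another.

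Other collagens shared the pattern of single libraries. Col12a1, a fibril-associated chain of tendon and muscle connective tissue (chromosome 9, 79598991 to 79718831), had 12.9, 11.3, 182 and 99.5 CPM in male mock and 15.9, 12.6, 21.3 and 25.9 CPM in male C-del libraries. In females it had 5.27, 11.8 and 18.9 CPM in mock and 65.5, 40.3, 11.8 and 23.5 CPM in C-del libraries. Male mock libraries 3 and 4 and female C-del libraries 1 and 2 were the high ones. The log2 fold change was -2.01 ± 0.99 in males and 1.55 ± 0.59 in females, and neither passed (edgeR, adjusted p = 0.268 and 0.346). The difference between the sexes, 3.56 ± 1.30, did not pass either (edgeR, adjusted p = 0.193), and without male mock libraries 3 and 4 the male value was 0.64.

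Col16a1, a further fibril-associated chain, had 3.81, 3.62, 30.8 and 18.5 CPM in male mock and 4.71, 5.10, 5.56 and 7.33 CPM in male C-del libraries. Female libraries held 2.09, 4.30 and 10.7 CPM in mock and 19.3, 9.20, 4.82 and 7.35 CPM in C-del libraries. The high libraries were those of Col12a1 in males, and C-del library 1 and mock library 3 in females. Col22a1, the chain of the muscle and tendon junction, had 18.6, 24.5, 31.2 and 25.9 CPM in male mock and 15.3, 13.3, 17.6 and 28.0 CPM in male C-del libraries. Female mock libraries had 19, 23.2 and 27.0 CPM of it and female C-del libraries 39.2, 35.9, 22.1 and 33.1 CPM. Its groups overlapped in both sexes, with log2 fold changes of -0.43 ± 0.27 in males and 0.50 ± 0.20 in females (edgeR, adjusted p = 0.389 and 0.368).

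Col20a1, also a fibril-associated chain, varied little. Male libraries had 11.5, 12.4, 11.7 and 11.2 CPM with mock and 12.8, 12.3, 12.9 and 9.77 CPM with C-del. Female libraries had 11.9, 13.2 and 9.90 CPM with mock and 12.1, 9.93, 13.7 and 13.3 CPM with C-del. The log2 fold change was 0.02 ± 0.10 in males and 0.07 ± 0.16 in females. Col9a1, better known from cartilage, had all 4 male C-del libraries (1.81 to 2.27 CPM) below all mock libraries (2.32 to 3.23 CPM), as for 8.51% of all genes, and did not pass (log2 fold change -0.37 ± 0.17; edgeR, adjusted p = 0.177).

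The type VI chains Col6a1 (76708792 to 76726168) and Col6a2 (76595762 to 76623630) are neighbours on the minus strand of chromosome 10. Col6a1 had 58.6, 60.4, 81.4 and 71.0 CPM in male mock and 75.8, 70.9, 51.8 and 66.3 CPM in male C-del libraries. The female levels were 36.4, 61.9 and 68.7 CPM in mock and 61.9, 51.1, 37.8 and 43.5 CPM in C-del libraries. Neither sex showed a separation. Col6a2 had 62.0, 69.6, 76.0 and 75.7 CPM in male mock and 86.5, 86.1, 58.5 and 72.6 CPM in male C-del libraries, and 37.9, 57.7 and 94.1 CPM in female mock against 61.9, 47.4, 38.1 and 43.0 CPM in female C-del libraries. Col6a3 had 52.1, 53.3, 62.8 and 56.2 CPM in male mock and 62.2, 74.6, 54.1 and 59.0 CPM in male C-del libraries, and 31.1, 43.5 and 33.0 CPM in female mock against 49.1, 39.5, 31.1 and 33.8 CPM in female C-del libraries. These 3 chains, which form the common type VI protomer, had log2 fold changes between -0.03 and 0.16 in males and between -0.41 and 0.10 in females, and none passed.

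Col6a6 can take the place of the alpha 3 chain (chromosome 9, 105687809 to 105828160, minus strand). It was the collagen that passed as lower in the average of both sexes, and it passed in neither sex alone. It had 4.40, 3.89, 2.46 and 3.68 CPM in male mock and 3.22, 1.87, 2.75 and 2.56 CPM in male C-del libraries. In females it had 1.98, 1.84 and 1.98 CPM in mock and 1.43, 0.276, 0.507 and 0.403 CPM in C-del libraries. The low female C-del values rested on few counts, with 3 in the lowest library. Female groups did not overlap, as for 4.39% of all genes in that direction, while mock library 3 fell among the C-del libraries in males. Averaged over the sexes it fell by 1.0 ± 0.24 on the log2 scale (edgeR, adjusted p = 0.0285). The single-sex values were -0.48 ± 0.20 in males and -1.53 ± 0.46 in females (edgeR, adjusted p = 0.142 and 0.224), with a difference of -1.06 between the sexes that did not pass (adjusted p = 0.282).

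The average call of Col6a6 was lost when male mock library 1, 2 or 4, male C-del library 2, or female C-del library 2, 3 or 4 was left out (adjusted p from 0.0535 to 0.0668). It was also lost without male mock libraries 3 and 4 together, without male C-del libraries 1 and 2 together and without female mock libraries 2 and 3 together (adjusted p from 0.0556 to 0.0936). Its relative Col6a5 had 0, 1.40 and 5.28 CPM in female mock and 0.101 to 0.716 CPM in female C-del libraries, with 1 library setting the mean. The average change of Col6a5, -1.98 ± 0.67 on the log2 scale, did not pass in edgeR (adjusted p = 0.109) and passed in DESeq2 (adjusted p = 0.0395). It was 1.97 without female mock libraries 2 and 3 (edgeR, adjusted p = 0.598).

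Col8a1 and Col8a2 encode the short chains of type VIII, a network collagen of vessel walls and of the membrane under the corneal endothelium. Col8a1 had 7.37, 6.37, 15 and 15.3 CPM in male mock and 14.6, 16.2, 6.70 and 8.43 CPM in male C-del libraries, a full overlap. Female libraries held 6.15, 6.14 and 5.72 CPM in mock and 17, 15.1, 9.04 and 9.47 CPM in C-del libraries. The C-del values all exceeded the mock values, as for 5.71% of all genes tested in females. Its female log2 fold change of 1.07 ± 0.25 had the smallest adjusted p of the chains in females, 0.156 in edgeR, and passed in DESeq2 (1.08, adjusted p = 0.00942). The difference between the sexes, 1.0 ± 0.52, did not pass (edgeR, adjusted p = 0.346). Col8a2 had 2.84, 2.55, 15.5 and 10.7 CPM in male mock and 2.00, 2.95, 1.54 and 3.43 CPM in male C-del libraries, and 1.54, 4.83 and 3.08 CPM in female mock against 10.6, 9.56, 2.45 and 3.93 CPM in female C-del libraries. Its high libraries were again male mock 3 and 4 and female C-del 1 and 2, and it did not pass (edgeR, adjusted p = 0.212 in males and 0.507 in females).

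The chains of types XV and XVIII, which sit between basement membranes and fibrils and carry the endostatin domain at their end, differed little. Col15a1 had 41.2, 37.2, 33.2 and 37.2 CPM in male mock and 38.9, 46.9, 28.5 and 33.2 CPM in male C-del libraries. The female levels were 24.8, 30.4 and 20.8 CPM in mock and 29.9, 22.0, 27.3 and 23.3 CPM in C-del libraries. The groups overlapped in each sex, and in males the C-del libraries held both the lowest and the highest value. Col18a1 had 15.2, 15.9, 16.4 and 16.7 CPM in male mock and 16.5, 18.8, 14.4 and 17.9 CPM in male C-del libraries, and 9.99, 11.3 and 12.3 CPM in female mock against 14.4, 14.3, 13.0 and 10.8 CPM in female C-del libraries. The log2 fold changes of Col18a1 were 0.08 ± 0.08 and 0.23 ± 0.15 (edgeR, adjusted p = 0.619 and 0.575). The remaining chains tested ranged in log2 fold change from -0.68 (Col27a1) to 0.32 (Col26a1) in males among those not yet named, apart from Col11a1 and Col11a2 at -1.48 and -0.78, and none passed. In females Col11a1 was at 1.21, Col11a2 at -0.07, Col27a1 at -0.55 and Col14a1 at -0.72, and none of these passed. Col14a1 was lower there before adjustment (edgeR, unadjusted p = 0.0329, adjusted p = 0.364).

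Across the family, male mock libraries 3 and 4 were the 2 highest of the 8 male libraries for 10 of the 34 chains tested (29.4%), a pattern seen in 6.79% of all genes. The 10 were Col1a1, Col1a2, Col3a1, Col5a1, Col5a2, Col8a2, Col11a1, Col12a1, Col16a1 and Col27a1. All chains together summed to 1355, 1408, 3390 and 2402 CPM in male mock libraries 1 to 4 and to 1731, 1737, 1453 and 1737 CPM in male C-del libraries. In females C-del libraries 1 and 2 were the highest of the 7 for 10 of 32 chains (31.3%, beside 3.83% of all genes). Female mock library 1 was lowest for 16 of 32 chains (50%, beside 12.7% of all genes). The female sums were 719, 1158 and 1307 CPM with mock and 2007, 1437, 900 and 1155 CPM with C-del. These patterns were picked after the values were seen and carry no test.

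**Figure D4:**
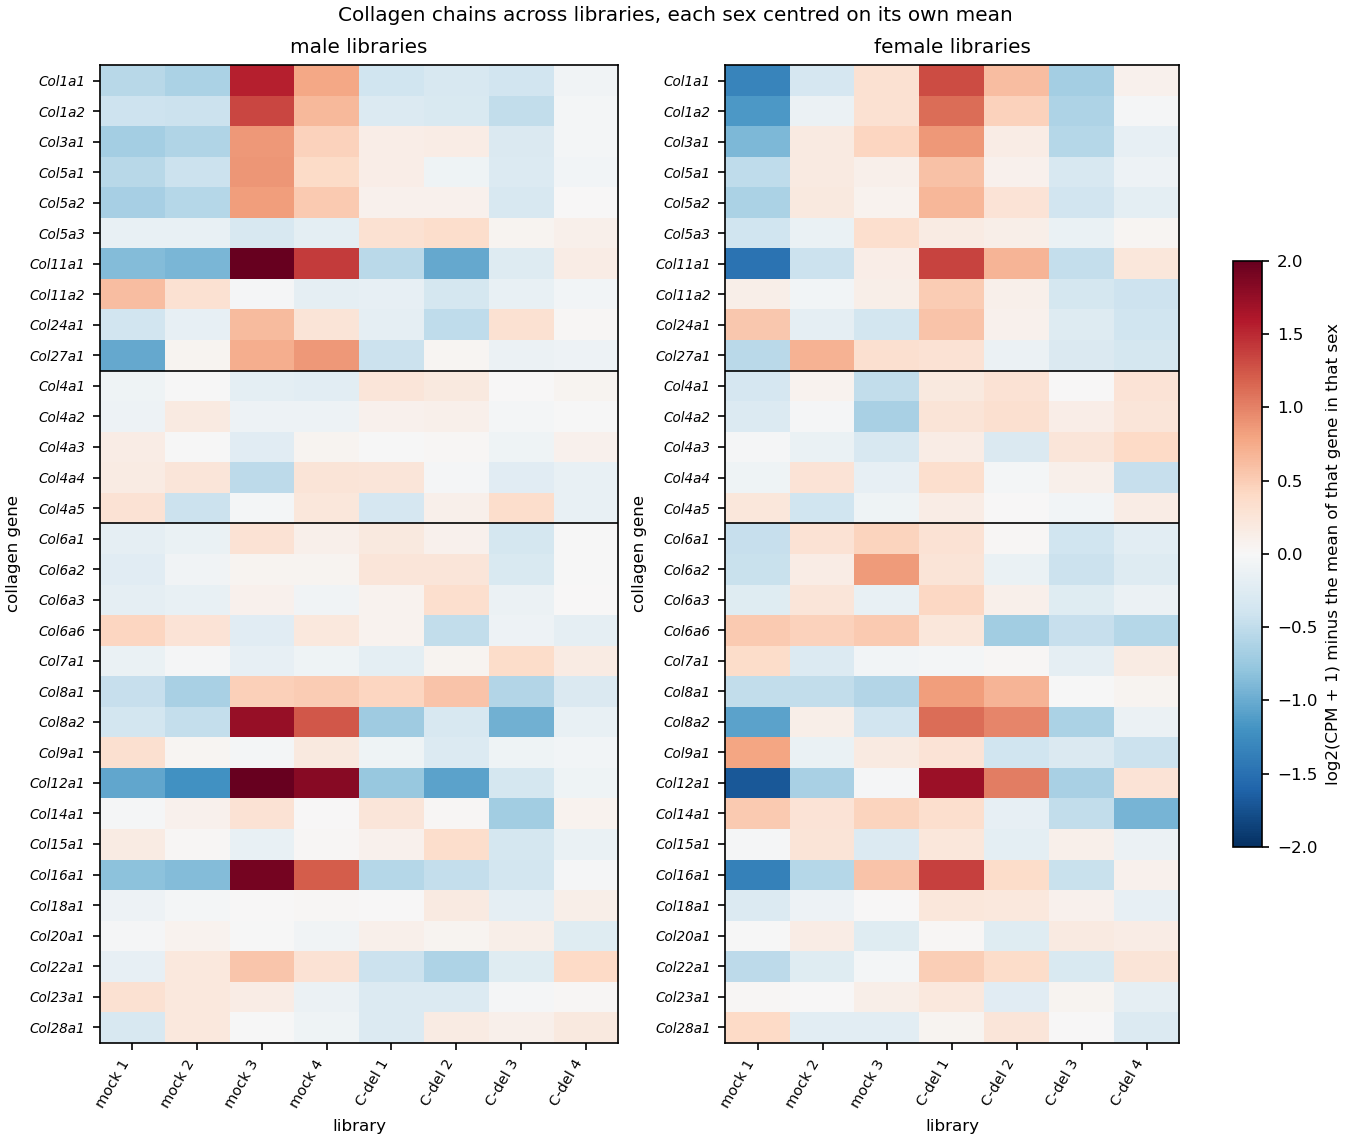
Each chain tested in both sexes (rows, with lines between the fibrillar, basement membrane and other collagens) in every library (columns), as log2(CPM + 1) minus the mean of that gene in that sex, with red above and blue below the mean. Male mock libraries 3 and 4 are red for most fibrillar chains and for Col12a1, Col16a1 and Col8a2, as are female C-del libraries 1 and 2 for Col1a1, Col11a1, Col12a1 and Col8a2, while the type IV rows vary little.

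Markers of other cell types were read over the same libraries. The 13 markers of fibroblasts and fibro-adipogenic progenitors summed to 1484, 1519, 1646 and 1734 CPM in male mock libraries 1 to 4 and to 1281 to 1747 CPM in male C-del libraries. In females they summed to 1358 to 1745 CPM with mock and 1101 to 1670 CPM with C-del. The 12 tenocyte markers, for tendon cells, summed to 404, 358, 554 and 346 CPM in male mock and to 209 to 362 CPM in male C-del libraries, with mock library 3 the highest and mock library 4 the lowest of the mock libraries. In females they summed to 185, 279 and 330 CPM with mock and to 432, 415, 214 and 317 CPM with C-del. No marker of either list was at 0 in any library. Of the fibroblast list, 1 of 13 passed in males (Ly6a, higher, 0.37; edgeR, adjusted p = 0.00145) and 1 on average (Clec3b, lower, -0.53; adjusted p = 0.0454). Over all genes, 5.8% were higher in males and 1.99% lower on average. Ly6a lost the call in the joint fit (0.368) and with neighbouring columns summed (0.0789). Clec3b lost it in 14 of 24 alternatives (up to 0.314), among them without male mock library 1, 2 or 4, male C-del library 2, 3 or 4, female mock library 3 or female C-del library 2, 3 or 4 (0.0694 to 0.0966). In females 0 of 13 passed in edgeR and 4 were lower before adjustment (7.09% of all genes), with a median of -0.28.

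Of the tenocyte markers, 1 of 12 passed as lower in males (5.37% of all genes), Tnmd, which encodes tenomodulin (log2 fold change -0.80 ± 0.22; edgeR, adjusted p = 0.0438). It lost that call without any 1 of the male mock libraries or without C-del library 1, 2 or 3 (adjusted p from 0.0675 to 0.109), and in 12 of 18 alternatives in all (up to 0.233). In males 9 of 12 were lower before adjustment (12.9% of all genes), with a median log2 fold change of -0.78. In females 0 of 12 were lower or higher, with a median of 0.32. In the difference between the sexes 7 of 12 had a higher value before adjustment (7.09% of all genes) and 0 passed. Of 6 cartilage markers, Matn1 was at 0 in every library, Acan had 0.129, 0.134, 4.37 and 3.06 CPM in male mock libraries, and the list summed to 1.21 to 6.96 CPM over all libraries. Leukocyte markers, 11 in all, summed to 249 and 261 CPM in male C-del libraries 1 and 2 and to 85.8 to 137 CPM in the other male libraries. In females they summed to 119, 1335 and 720 CPM with mock, the middle library being the highest, and to 79.9 to 164 CPM with C-del. None of the 11 passed in either sex in edgeR, and all 11 were lower in females before adjustment (7.09% of all genes). Of the cartilage list 1 gene, Sox9, was tested in males and was higher (1.07; edgeR, adjusted p = 0.000639). Acan, Hapln1, Matn3 and Cnmd fell below the filter in males, and their means went the other way. These means were 1.92, 0.322, 0.166 and 0.0826 CPM in male mock and 0.486, 0.0474, 0.0322 and 0.0167 CPM in male C-del libraries. No Schwann cell (7 tested), satellite cell (3) or heart (2) marker passed in males or females. In males 2 of 6 muscle fibre genes were higher, beside 5.8% of all genes. The part of all these levels in the collagen values was not tested.

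The machinery that folds, trims and links collagen held 33 listed genes. Of these, 31 were tested in males, 3 were higher and 0 lower, beside 5.8% and 5.37% of all genes. P4ha1 and P4ha2, the catalytic subunits of prolyl 4-hydroxylase, which stabilises the triple helix, rose by 0.35 ± 0.06 and 0.26 ± 0.06 on the log2 scale (edgeR, adjusted p = 0.00303 and 0.0129). Serpinh1, the collagen chaperone HSP47, rose by 0.33 ± 0.07 (edgeR, adjusted p = 0.00653). It read 71.1, 74.3, 86.7 and 83.9 CPM in male mock and 101, 107, 90.2 and 100.1 CPM in male C-del libraries, without overlap. P4ha1 read 38.7, 37.2, 42.8 and 37.8 CPM in male mock and 52.4, 52.3, 45.4 and 48.9 CPM in male C-del libraries, again without overlap. Both sets of values lay within a narrow range. For 9.05% of all genes tested in males, all C-del libraries lay above all mock libraries. Serpinh1 and P4ha2 lost the call in the joint fit (adjusted p = 0.19 and 0.223), and without male C-del libraries 1 and 2 (0.0617 and 0.0638), P4ha2 also without male mock libraries 3 and 4 (0.0756), and all 3 lost it with neighbouring columns summed (0.0854 to 0.129). In females 0 of 30 and on average 0 of 32 passed in edgeR, beside 1 and 2 higher and 0 lower before adjustment (p under 0.05). Over all genes, 4.81% in females and 8.89% on average were higher before adjustment. Lox, the enzyme that crosslinks fibrils, had a log2 fold change of -0.41 ± 0.16 in males that did not pass (edgeR, adjusted p = 0.132). The median of this list was -0.03 in males, near that of all genes.

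Of 14 genes for collagen breakdown and its inhibitors, 12 were tested. In males 1 was lower (5.37% of all genes), and on average 1 was higher (2.42%). Timp4, an inhibitor of metalloproteinases, was lower in males (log2 fold change -0.20 ± 0.06; edgeR, adjusted p = 0.0444). The call was lost without male mock library 1, 3 or 4 or C-del library 1 or 2 (adjusted p from 0.0863 to 0.122), and in 10 of 18 alternatives in all, with adjusted p up to 0.649 in the joint fit. Timp3, the inhibitor that is bound to the matrix, was higher on average (0.26 ± 0.06; edgeR, adjusted p = 0.0309). This call was lost without male mock library 1, 3 or 4, male C-del library 1, 3 or 4, female mock library 2 or female C-del library 3 or 4 (adjusted p from 0.0503 to 0.0668), and in 12 of 24 alternatives in all (up to 0.193). Timp3 had 302, 312, 305 and 271 CPM in male mock and 293, 282, 315 and 321 CPM in male C-del libraries, which overlapped. Female libraries held 140.3, 111 and 109.9 CPM in mock and 179, 153, 169 and 176 CPM in C-del. The female groups did not overlap, as for 5.71% of all genes in that direction. The difference between sexes for Timp3, 0.46, did not pass (edgeR, adjusted p = 0.0896). No collagenase or gelatinase of the list passed in either sex.

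Among 11 collagen receptors, Adgrg1, an adhesion G protein-coupled receptor that binds type III collagen, rose. It had 32.1, 31.8, 33.2 and 29.4 CPM in male mock and 39.5, 41.6, 44.3 and 41.1 CPM in male C-del libraries. In females it had 16.6, 15.1 and 18 CPM in mock and 23.1, 23.5, 23.3 and 29.6 CPM in C-del libraries. Groups did not overlap in either sex, as for 9.05% of all genes in males and 5.71% in females in that direction. The log2 fold change was 0.40 ± 0.06 in males and 0.49 ± 0.07 on average (edgeR, adjusted p = 0.000615 and 0.000486), and both calls were kept in all alternatives run (18 and 24). In females alone it was 0.59 ± 0.13 and did not pass (edgeR, adjusted p = 0.155). Adgrg1 was 1 of 8 receptors tested in males and 1 of 10 on average, beside 5.8% and 2.42% of all genes higher. The discoidin domain receptors Ddr1 and Ddr2, tyrosine kinases that bind fibrillar collagen, had male log2 fold changes of -0.24 ± 0.08 and 0.17 ± 0.07 that did not pass (edgeR, adjusted p = 0.0803 and 0.116).

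Laminins and other partners of type IV numbered 15, with 14 tested in males and on average and 13 in females. Lama2, the laminin chain of the muscle fibre membrane, was the 1 that passed, on average, at 0.38 ± 0.10 (edgeR, adjusted p = 0.0331), beside 2.42% of all genes higher. The call was lost without any 1 of the male mock libraries, male C-del library 1 or 2, female mock library 3 or female C-del library 2 or 4 (adjusted p from 0.0572 to 0.0726), and in 12 of 24 alternatives in all (up to 0.213). It had 40.0, 41.4, 42.6 and 45.1 CPM in male mock and 50.7, 52.5, 44.6 and 45.6 CPM in male C-del libraries, and 37.4, 36.3 and 27.7 CPM in female mock against 52.7, 62.8, 35.9 and 49.6 CPM in female C-del libraries. Both sexes overlapped, by 1 C-del library each. Hspg2, which encodes perlecan, had a log2 fold change of 0.34 ± 0.10 on average that did not pass (edgeR, adjusted p = 0.0711). The median of the list was 0.00 in males and 0.46 in females. Of the 15 fibril-associated matrix proteins, such as decorin and fibromodulin, 0 passed in edgeR in any comparison. At an unadjusted p under 0.05, 2 of them were lower in males (12.9% of all genes), 3 higher in females (4.81%) and 0 different on average. Fmod, fibromodulin, which is also a listed tenocyte marker, had a log2 fold change of -1.06 ± 0.28 in males (edgeR, adjusted p = 0.0676).

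Of 18 listed signals that act on collagen production, 17 had an entry and were tested. In males Smad3, a transducer of TGF-beta signals, and Pdgfb, a growth factor for mural cells, were higher, at 0.54 ± 0.08 and 0.43 ± 0.08 (edgeR, adjusted p = 0.00238 and 0.0031). Tgfbr2, the TGF-beta receptor that binds the ligand, and Pdgfa were lower, at -0.44 ± 0.04 and -0.25 ± 0.06 (edgeR, adjusted p = 2.87e-05 and 0.0208). Tgfbr2 read 80.6, 80.6, 80.8 and 77.2 CPM in male mock and 59.4, 59.1, 59.4 and 57.0 CPM in male C-del libraries. These were 2 narrow and separate groups, as for 8.51% of all genes in that direction. Tgfbr2 passed in all alternatives but the joint fit (adjusted p = 0.0518). On average 4 of 17 were higher and 0 lower, beside 2.42% and 1.99% of all genes. Among the 4 were Ccn2 (0.95 ± 0.21), Pdgfb (0.41 ± 0.07) and Smad3 (0.34 ± 0.07), with adjusted p of 0.0229, 0.00401 and 0.0109 in edgeR. In females alone 0 of 17 passed in edgeR, beside 5 higher (4.81% of all genes) and 1 lower (7.09%) before adjustment (p under 0.05). The male call of Pdgfa was lost without mock library 1 or 2 or C-del library 1 or 2 (adjusted p from 0.0526 to 0.0745), and in 7 of 18 alternatives in all (up to 0.199). The average call of Ccn2 was lost in 4 of 24: without female mock library 2 (0.0582), with no filter (0.0558), without male C-del libraries 1 and 2 (0.0902) and without female mock libraries 2 and 3 (0.117). That of Smad3 was lost in 2 of 24 (0.0715 and 0.0803).

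Ccn2, a matricellular growth factor, had 16.7, 17.6, 37.7 and 29.9 CPM in male mock and 40.2, 45.3, 34.0 and 41.9 CPM in male C-del libraries. Female libraries held 8.89, 8.60 and 15 CPM in mock and 34.0, 24.2, 16.7 and 26.7 CPM in C-del libraries. Male mock libraries 3 and 4 were the higher mock libraries for Ccn2, as for type I collagen, but here C-del libraries reached the same range or above. Female groups did not overlap, as for 5.71% of all genes in that direction, and in males mock library 3 lay above C-del library 3.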

How the data were processed

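RNA-seq libraries of tibialis anterior (4 male mock, 4 male C-del, 3 female mock, 4 female C-del) were prepared from poly(A) RNA with strand kept, per the protocols in the labels. The authors deposited expected counts per gene: depending on the library, 14.6% to 17.3% of entries lay off a whole number by more than 0.001. Counts were made with featureCounts 2.0.0 on GRCm38.p6, per the submitters' processing notes; for aligner, counting options and strand setting: not given in the sources used here. The design had assumed whole counts, so the expected counts were rounded. Female columns were matched to samples by number, male columns by group alone, so male numbers are column numbers that pair nothing.

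Genes were kept by filterByExpr at a minimum count of 10, scaled by TMM and tested with edgeR 4.0.16 (robust quasi-likelihood, R 4.3.3), each sex alone; average and difference (female minus male) came from 1 joint model of all 15 libraries. Standard errors (SE) were derived by dividing each log2 fold change by the root of its F statistic. Ratios were tested by exact permutation (scipy 1.17.1). The plot across libraries used log2(CPM + 1). The test was checked on simulated data. DESeq2 1.42.0, other scalings, filters and left-out libraries were alternatives. Gene spans and exon lengths came from GENCODE M21 on GRCm38. In each group, pairs of libraries differed by a chi-square per gene of at least 2.62, so none was counted as a copy. Male C-del columns fell into neighbouring pairs: 1 and 2 differed by 4.83 and 3 and 4 by 4.56, against 12.1 to 14.7 across these pairs, while male mock 3 and 4 differed by 2.62 and mock 1 and 2 by 6.03. Summing neighbouring male columns was one of the alternatives. 5 entries at further loci of 3 collagen genes were left out. The members and lists were chosen with earlier results of these data known.

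By the rule for named genes, all chains were accounted for, and every library was given for chains that passed, the up to 4 chains of each group with the highest level per length in male mock, and the pairs of types IV and VI. From each other list up to 4 members were to be named, passing ones first. The values of 1 listed gene are not reported here, though the counts over its list include it. The other lists were collagen folding, processing and crosslinking; breakdown and its inhibitors; receptors; laminins and basement membrane partners; fibril-associated matrix proteins; and signals acting on collagen. Marker lists covered fibroblasts, tenocytes, cartilage, leukocytes, endothelium, pericytes and smooth muscle, Schwann cells, satellite cells, skeletal muscle fibres and heart.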

Additional observations from a re-analysis of the deposited data

Results flagged for a closer look

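Within groups of 4 libraries, 100 sets of values of tested chains were screened for a library far from the other 3, and 4 were marked because the gap to the nearest library, as a share of the whole range, was above Dixon's critical value. Chance marks about 1 in 20 such groups. Col4a2 was at 157 CPM in male mock library 2 and at 129 CPM in the other 3 male mock libraries. Col4a4 was at 1.57 CPM in male mock library 3, where the others had 3.10 to 3.40 CPM. Col9a1 was at 1.81 CPM in male C-del library 2, where the others had 2.19 to 2.27 CPM. In females Col9a1 was at 1.61 CPM in C-del library 1, where the others had 0.604 to 0.761 CPM.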

How the results depend on the processing

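Size factors of the RLE kind, DESeq2, no filter, unrounded counts, no robust step and summed further loci left the male calls as they were. In males the number of higher chains was 2 and fell to 0 in the joint fit, without C-del libraries 1 and 2, and with neighbouring columns summed. Calls over all genes fell too, from 843 of 14543 higher to 214 of 15272, 644 of 14875 and 164 of 16025. The number of higher chains was 1 to 2 when 1 library was left out. Lower chains numbered 0, and 1 without mock libraries 3 and 4, with 0 to 1 when 1 library was left out (Col27a1 at -1.04 without mock library 1, Col22a1 at -0.71 without C-del library 4). In females 2 chains were higher in DESeq2 and 2 in the joint fit, which also had 1 lower; leaving out 1 library gave 0 higher and 0 to 1 lower (Col6a5, without mock library 1). For the average, higher chains numbered 0 without male mock libraries 3 and 4 and 0 without male C-del libraries 1 and 2, and 1 to 3 when 1 library was left out. Lower chains numbered 2 in DESeq2, 0 without either of those pairs, and 0 to 3 when 1 library was left out. Calls over all genes also fell without those pairs, from 369 higher and 304 lower of 15272. Without male mock libraries 3 and 4 they were 146 and 72 of 15348. Without male C-del libraries 1 and 2 they were 140 and 52 of 15354. Chains that had not passed on average and did so with 1 library left out were Col5a3 (0.38, without female mock library 3), Col6a5 (-2.26, without female mock library 1), Col9a1 (-0.78 without female mock library 2, -0.84 without female C-del library 1) and Col14a1 (-0.58, without female C-del library 1). For the sex difference, 0 to 1 chains were higher when 1 library was left out. The cause was not tested.

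The fit with the replicate number as a block could be made for females alone. It called 0 chains, with Col4a1 at 0.42 (adjusted p = 0.766). Same-numbered mock and C-del libraries did not deviate together (correlations of -0.134, -0.00813 and -0.0411), and the numbers were used only to name libraries. Correlations over so few pairs cannot exclude a pairing. The block changed no other call and turned the sign of Col4a4, which had not passed, to 0.20.

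Of the chains named, those that had not passed changed sign as follows. Without male mock libraries 3 and 4 the male log2 fold change became 0.64 for Col3a1, 0.61 for Col5a2, 0.44 for Col5a1, 0.44 for Col27a1, 0.61 for Col16a1, 0.16 for Col1a2, 0.30 for Col1a1, 0.64 for Col12a1, 0.15 for Col6a1, 0.0478 for Col4a5, -0.00522 for Col4a2 and -0.00719 for Col20a1. Without male C-del libraries 1 and 2 it became -0.0541 for Col20a1, -0.11 for Col6a2, -0.53 for Col8a1 and 0.10 for Col4a5. Without female mock libraries 2 and 3 the female value became 0.20 for Col4a4, 0.33 for Col6a2, 0.42 for Col6a1 and -0.26 for Col4a5, and the average of Col6a5 became 1.97. The remaining female mock library is there taken to have the same spread as C-del. With 1 library left out, the male values that changed sign ranged from -0.36 to 0.173 for Col3a1, -0.404 to 0.113 for Col5a2, -0.448 to 0.0772 for Col5a1, -0.0137 to 0.11 for Col20a1, -0.149 to 0.0922 for Col15a1, -0.101 to 0.0661 for Col6a1, -0.149 to 0.268 for Col8a1 and -0.23 to 0.1 for Col4a5. With 1 library left out, the female values that changed sign ranged from -0.17 to 0.44 for Col3a1, -0.242 to 0.257 for Col4a4, -0.0457 to 0.261 for Col6a3, -0.0693 to 0.285 for Col5a1, -0.0385 to 0.171 for Col20a1, -0.113 to 0.168 for Col15a1, -0.0594 to 0.324 for Col5a3 and -0.0194 to 0.566 for Col4a5.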
